A study of Mus musculus with 6 samples.

Results

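Enteroendocrine cells are the hormone-secreting cells of the gut epithelium. They read the contents of the lumen and release peptides that act on nerves, on neighbouring cells and, through the blood, on the pancreas and the brain. Their peptides are stored in dense-core granules together with acidic proteins, the granins, and different hormones prevail in different stretches of the gut: secretin, cholecystokinin and neurotensin are classical small intestinal hormones, whereas the L cells of the colon make glucagon-like peptides, peptide YY and insulin-like peptide 5. The 10 genes described here are 2 granins, Chga and Chgb, and 8 peptide hormone or neuropeptide precursors, Sct, Cck, Nts, Tac1, Sst, Gcg, Insl5 and Pyy. They were taken by name, as the probe sets that carry one of these symbols alone in the platform annotation, which gave 11 probe sets for 10 of the 18193 genes on the array. No probe set with several symbols named any of them.

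The study asked what the intestinal epithelium does without the histone deacetylases HDAC1 and HDAC2, which remove acetyl groups from histones and other proteins. The 3 HDAC1/2 deficient mice carried floxed Hdac1 and floxed Hdac2 and a villin-Cre transgene, which acts in the epithelial cells of small intestine and colon, so that other cells of the gut wall keep both genes. The 3 control mice are labelled wild type, and whether they carried floxed alleles is not given in the sources used here. All were untreated, and the colons compared came from mice of 4 months. Expression was read on Affymetrix Mouse Genome 430 2.0 arrays, for each of which the labels number 1 mouse, and the deposited values are log2 expression values (RMA, a multi-array normalization). Colon epithelium is the source in the labels, but the study's methods speak of total colon, so neurons of the gut wall may be part of the sample. Markers of colon epithelium were high in both groups, with a mean log2 value over 13 of them between 12.83 and 12.84 on the deficient arrays and 12.96 on each control array.

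Hdac1 was 2.46-fold lower in deficient colon, whereas Hdac2 had a log2 fold change of 0.05 (limma adjusted p = 0.475). Each was read in its brightest probe set only. No probe position was at hand to set that of Hdac2 against the floxed exons, so its value does not show whether the deletion took place. Arrays of one group correlated at 0.9984 or more over all probe sets, and those of different groups at 0.9828 or less. The Y-linked Eif2s3y had log2 values of 8.22 to 8.49 in deficient and 3.84 to 4.31 in control colon, and Xist 11.99 to 12.06 and 12.81 to 12.88 in the same order of groups. Each deficient array thus held both Xist and Y-linked RNA, which RNA of 1 mouse would not usually hold, so whether each stands for 1 animal or for several is uncertain. Genotype cannot be told apart from a difference in sex-linked RNA between the groups. Each gene was compared by limma over all 45037 probe sets, and passed at an adjusted p under 0.05 (Benjamini-Hochberg). Fold changes are deficient over control. The p-values and standard errors rest on the spread between 3 arrays per group, drawn by limma toward a common spread of all probe sets.

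Among the 10 genes, Sct, Nts, Tac1 and Cck rose in HDAC1/2 deficient colon, each more than 2-fold. Chga, Insl5, Sst, Chgb and Gcg fell, of which only Chga fell more than 2-fold, and Pyy did not pass the test. Many genes changed in this comparison, since 50.4% of the 18193 passed, with 21.9% of all genes higher and 28.4% lower in deficient colon. Passing is therefore ordinary here, whereas a size beyond 2-fold is not, since rises past the test and past 2-fold made up 2.25% of all genes and such falls 1.82%. The 10 genes were chosen with earlier results of these data known, so their share beyond 2-fold is no test of the set. The median log2 fold change was -0.17 over the 10 genes and -0.022 over all genes, since the rises and falls lie on both sides of it. The arrays of both groups did not overlap for any of the 10 genes in their brightest probe set, as for 60.9% of all genes. In a sample of whole tissue, fewer cells of a type and less RNA per cell cannot be told apart.

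**Figure D1:**
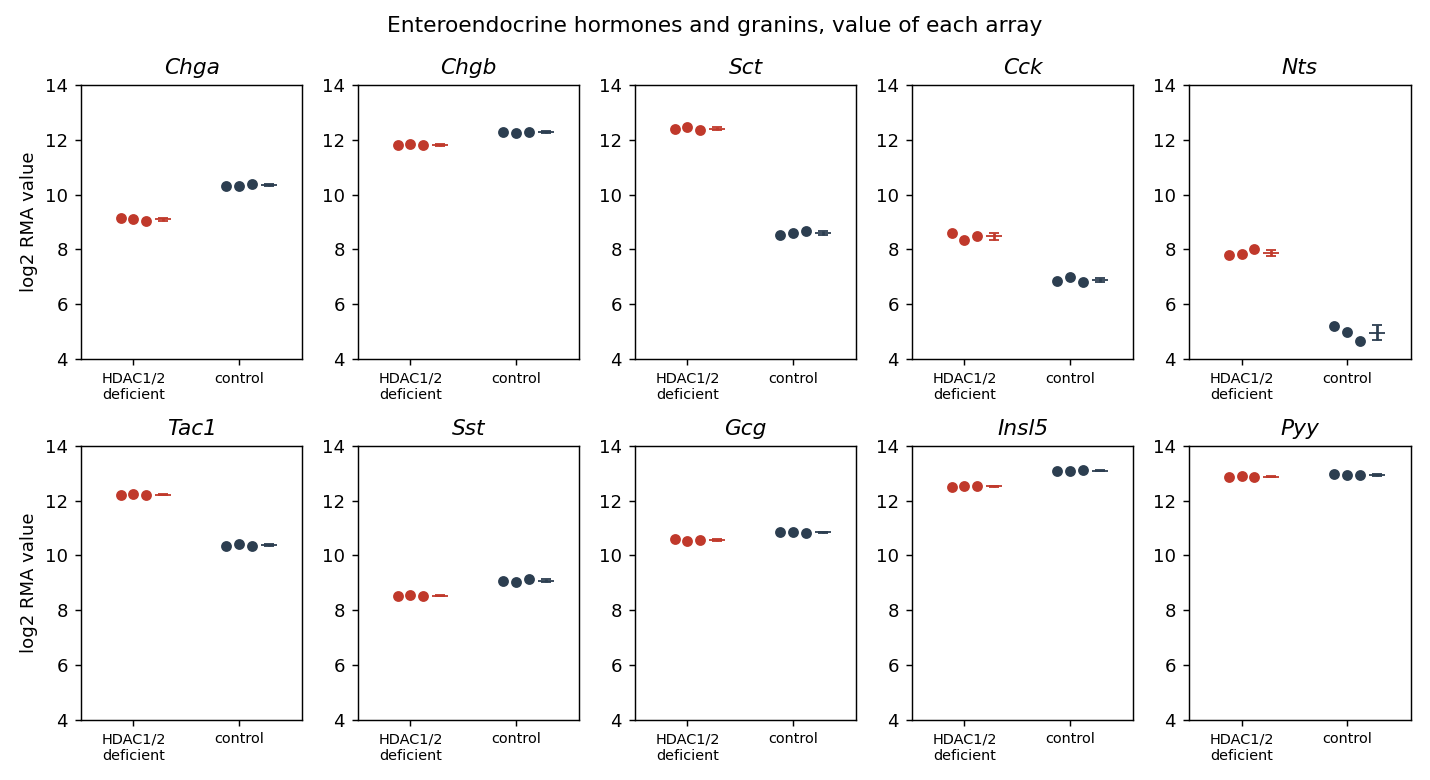
Log2 RMA value (vertical axis) of each of the 10 genes on the 3 HDAC1/2 deficient arrays (red, left) and the 3 control arrays (dark, right), with the mean and SD beside the points. Sct, Cck, Nts and Tac1 lie higher and Chga, Chgb, Sst, Gcg and Insl5 lower in deficient colon, while the Pyy points of both groups lie close to 12.9.

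The granins are the proteins that fill the dense-core granules, and chromogranin A is the general marker of endocrine cells in sections. Chga had log2 values of 9.14, 9.10 and 9.04 in deficient colon, against 10.32, 10.32 and 10.38 in control colon. Every deficient array was more than 1 log2 unit below every control array. The fall was 2.37-fold, a log2 fold change of -1.24 with a standard error (SE) of 0.046 (limma adjusted p = 1.18e-06). Chgb, which encodes chromogranin B, the second large granin, had values of 11.79, 11.83 and 11.81 in deficient colon, against 12.29, 12.24 and 12.29 in control colon. All deficient arrays lay below all control arrays, though by less than for Chga. It fell 1.38-fold (log2 fold change -0.46, SE 0.040, limma adjusted p = 6.74e-05). Within each array, Chga minus Chgb was -2.72 ± 0.059 in deficient and -1.94 ± 0.032 in control colon (SD, n = 3 each), a difference of -0.78 (exact two-sided permutation test, p = 0.1, the smallest that 3 against 3 arrays allow, and 0.1 after adjustment over 4 pairs of genes).

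The start regions of Chga, Chgb and Sst are shown because they hold the same short element, the cAMP response element (CRE) or its core. The stretches are from the RefSeq promoter table (GRCm38.p6), with the CRE or its core in capitals.
Chga promoter, chr12:102554886-102554913, plus strand: gggcggtcctaTGACGTaatttcctggg
Chgb promoter, chr2:132781559-132781588, plus strand: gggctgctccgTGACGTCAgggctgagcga
Sst promoter, chr16:23890874-23890903, minus strand: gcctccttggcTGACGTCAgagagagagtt
The core TGACGT, searched on both strands of the 250 bases before the gene start, was found in 3 of the 10 genes and in 7.29% of 27025 genes with a window in the table. The full element TGACGTCA, which contains the core, was in 2 of the 10 genes, Chgb and Sst, and in 1.77% of all. No window of the other 7 genes held the core, neither those of Gcg and Insl5, which fell, nor that of Pyy, nor those of the 4 genes that rose, which says only that these letters are not in these windows. A match in a sequence is a description and no evidence that a factor binds there.

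Secretin is the hormone of the S cells, which lie mainly in the proximal small intestine and, when acid arrives, make the pancreas release bicarbonate. Sct changed the most of the 10 genes. It had log2 values of 12.38, 12.46 and 12.37 in deficient colon, against 8.53, 8.60 and 8.67 in control colon. The groups were separated by more than 3 log2 units. The rise was 13.98-fold (log2 fold change 3.80 with a 95% confidence interval of 3.68 to 3.93, SE 0.053, limma adjusted p = 1.54e-08). The 3 genes whose centred values lay closest to those of Sct over the 6 arrays were Reg2, Pnliprp1 and Olfm4, with root mean square differences of 0.092, 0.095 and 0.11 log2 units and log2 fold changes of 3.80, 3.98 and 3.84. With arrays so alike within a group, this closeness reflects mainly a fold change of like size. The sequence ahead of Sct is shown because in rodents this stretch is known for E-boxes and GC boxes, bound by basic helix-loop-helix and Sp family factors. It ends at the outer boundary of the Sct gene in the RefSeq gene table, which lies before the start used for the window, with the E-box CANNTG and the GC boxes GGGCGG in capitals.
Sct promoter, chr7:141279175-141279283, minus strand: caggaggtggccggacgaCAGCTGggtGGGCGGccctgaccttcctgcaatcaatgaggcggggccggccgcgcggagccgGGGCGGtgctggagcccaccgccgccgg
An E-box was present in the 250 bases before the start in all 10 genes and in 69.3% of all genes, and a GC box on either strand in 5 of the 10, Chga, Chgb, Sct, Tac1 and Insl5, and in 35.4% of all.

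Nts encodes neurotensin, a peptide of ileal endocrine cells and of enteric neurons that slows motility and promotes fat uptake. Its log2 values were 7.78, 7.85 and 8.01 in deficient colon, against 5.22, 4.97 and 4.67 in control colon. All control values lay below 6.26, the level that 40% of probe sets did not exceed, where RMA values carry much background and changes are compressed. Neurotensin RNA rose 7.59-fold on this scale (log2 fold change 2.92 with a 95% confidence interval of 2.62 to 3.23, SE 0.13, limma adjusted p = 2.96e-06).

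Cck encodes cholecystokinin, the hormone of the proximal I cells that contracts the gallbladder and is also made by neurons. On the deficient arrays it had log2 values of 8.59, 8.36 and 8.47, against 6.86, 6.98 and 6.82 on the control arrays. The lowest deficient array was more than 1 log2 unit above the highest control array. Cholecystokinin RNA rose 3.00-fold (log2 fold change 1.59 with a 95% confidence interval of 1.42 to 1.75, SE 0.071, limma adjusted p = 2.98e-06). Tac1 is the precursor gene of substance P and neurokinin A, which enterochromaffin cells and enteric neurons release. It stood at 12.21, 12.22 and 12.18 in deficient colon, against 10.34, 10.41 and 10.36 in control colon, which is a rise of 3.57-fold (log2 fold change 1.84, SE 0.041, limma adjusted p = 1.16e-07). The second Tac1 probe set was dim in both groups, at 4.57, 4.53 and 4.42 in deficient and 4.35, 4.53 and 4.48 in control colon, and did not pass (log2 fold change 0.055, limma adjusted p = 0.538). As the mean of both probe sets, the log2 fold change of Tac1 was 0.95. The other 9 genes had 1 probe set each.

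Sst encodes somatostatin, the inhibitory peptide of D cells and of some enteric neurons, which dampens the release of most other gut hormones. Somatostatin RNA had log2 values of 8.51, 8.55 and 8.51 in deficient colon, against 9.07, 9.02 and 9.12 in control colon. The deficient arrays were all lower and close to each other. It fell 1.46-fold (log2 fold change -0.55, SE 0.044, limma adjusted p = 4.72e-05).

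Of the 3 hormones of colonic L cells, Insl5 and Gcg fell and Pyy did not pass the test. Insl5 encodes insulin-like peptide 5, a hormone of the distal colon that raises food intake in mice. It had log2 values of 12.48, 12.54 and 12.51 in deficient colon, against 13.08, 13.07 and 13.10 in control colon, and fell 1.49-fold (log2 fold change -0.57, SE 0.040, limma adjusted p = 2.43e-05). Gcg encodes proglucagon, from which L cells cut the glucagon-like peptides and islet alpha cells cut glucagon. Its values were 10.58, 10.52 and 10.57 in deficient colon, against 10.84, 10.86 and 10.81 in control colon, a fall of 1.21-fold (log2 fold change -0.28, SE 0.042, limma adjusted p = 0.00113). Pyy encodes peptide YY, which slows transit and curbs appetite. Peptide YY RNA was at 12.85, 12.89 and 12.86 in deficient colon, against 12.96, 12.92 and 12.92 in control colon. The arrays did not overlap, yet the difference did not pass (log2 fold change -0.066 with a 95% confidence interval of -0.16 to 0.027, limma adjusted p = 0.244), although it did with eBayes trend and robust settings (limma adjusted p = 0.0197).

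The L cell hormones were also set against each other within each array, in a test that 3 against 3 arrays cannot bring below 0.1. Insl5 minus Pyy was -0.36 ± 0.017 in deficient and 0.15 ± 0.027 in control colon, a difference of -0.51. Gcg minus Pyy was -2.31 ± 0.056 in deficient and -2.10 ± 0.033 in control colon, a difference of -0.21. Gcg minus Insl5 was -1.96 ± 0.066 in deficient and -2.25 ± 0.038 in control colon, a difference of 0.29 (SD, n = 3 each). The arrays of both groups did not overlap in any of the 3 pairs, and each had p = 0.1 in the exact two-sided permutation test. The level of one probe set is not comparable with that of another, so only the change of each difference between the groups can be read.

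**Figure D2:**
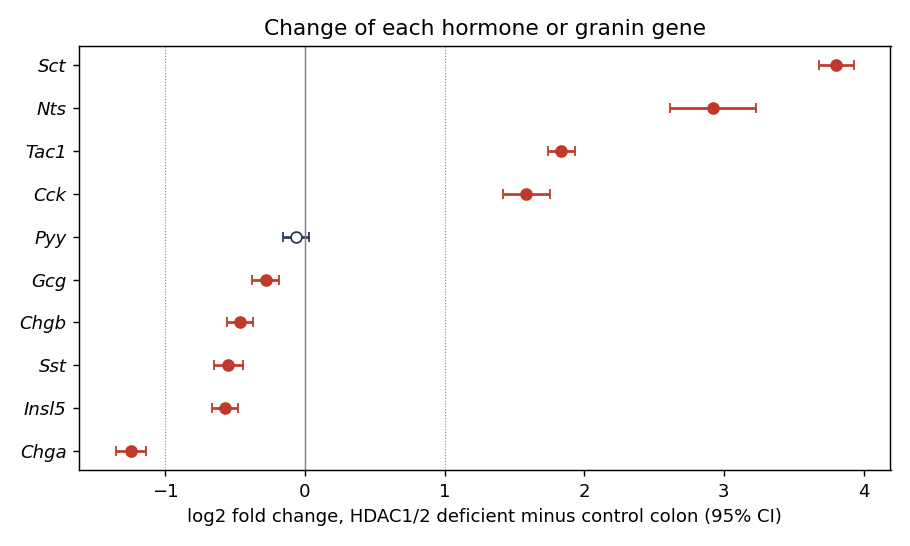
Log2 fold change (deficient minus control colon, horizontal axis) of the 10 genes with its 95% confidence interval, filled red where limma adjusted p was under 0.05 and open where it was not, with dotted lines at 2-fold. Sct at 3.80 and Nts at 2.92 lie farthest to the right, Chga at -1.24 alone lies left of the lower dotted line, and the interval of Pyy spans 0.

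Genes that process and pack peptide hormones were mostly lower in HDAC1/2 deficient colon. Of 14 measured, 9 fell, 2 rose and 3 did not pass, and 0 changed more than 2-fold (median log2 fold change -0.27). Of all genes, 28.4% were lower and 21.9% higher. Pam, which encodes the enzyme that amidates the ends of secretin, cholecystokinin, substance P and peptide YY, was at 9.37 ± 0.058 in deficient and 10.23 ± 0.038 in control colon (SD, n = 3 each) and fell by 0.86 on the log2 scale (limma adjusted p = 7.80e-06). Pcsk1n, an inhibitor of prohormone convertase 1, fell by 0.59 and Scg5, the chaperone of prohormone convertase 2, by 0.47. Pcsk1 itself, the convertase that releases glucagon-like peptides from proglucagon, rose by 0.54 (7.88 ± 0.035 in deficient and 7.34 ± 0.16 in control colon, SD, n = 3 each, limma adjusted p = 0.00117). The carboxypeptidase gene Cpe (-0.45) and Scg2 (-0.20), the gene of secretogranin II, fell with Chga and Chgb, while Scg3, of secretogranin III, had a log2 fold change of -0.12 (limma adjusted p = 0.132). The other Cpe probe set, at -0.26, did not pass.

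Other gut peptides and the synthesis of serotonin were split. Of 18 genes, 5 rose, 5 fell and 8 did not pass, with a median log2 fold change of -0.028. Guca2b, the gene of uroguanylin, rose by 1.01 (limma adjusted p = 2.11e-06), and Guca2a, the gene of its colonic relative guanylin, fell by 0.56 on the log2 scale (limma adjusted p = 4.60e-05). Ddc, which encodes the decarboxylase of serotonin and dopamine synthesis, fell by 0.58, and Vip, a peptide gene of enteric neurons, by 0.46. Tph1, the rate-limiting enzyme gene of serotonin in enterochromaffin cells, was at 7.87 ± 0.086 in deficient and 7.94 ± 0.080 in control colon (SD, n = 3 each) and did not pass (log2 fold change -0.068, limma adjusted p = 0.440). Among hormones of the proximal gut, Ghrl, the ghrelin gene, rose by 0.35 (limma adjusted p = 0.00118), whereas Gip had a log2 fold change of -0.076 (limma adjusted p = 0.309) and Gast of 0.056 (limma adjusted p = 0.543).

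Few receptor genes of these peptides passed the test. Of 21 measured, 1 rose, 4 fell and 16 did not pass, and the median log2 fold change was -0.020. Npy1r, a receptor of peptide YY and of neuropeptide Y, was at 6.73 ± 0.10 in deficient and 8.02 ± 0.14 in control colon (SD, n = 3 each) and fell 2.44-fold (log2 fold change -1.29, limma adjusted p = 1.37e-05) in its brighter probe set, while its other probe set had a log2 fold change of 0.15 and did not pass. Npy2r (-0.38), Sort1 (-0.28), which binds neurotensin, and the somatostatin receptor gene Sstr5 (-0.21) fell as well. Sctr, the secretin receptor gene, had a log2 fold change of 0.11 (limma adjusted p = 0.186), Ntsr1, of neurotensin, -0.072 (limma adjusted p = 0.402), and Cckar, of cholecystokinin, 0.047 (limma adjusted p = 0.684). Tacr1, the substance P receptor gene, had a log2 fold change of -0.086 (limma adjusted p = 0.208). Npy2r, Ntsr1 and the 1 receptor gene that rose had means below 6.26 in both groups, as did several others. Background is large there, so these values say little about whether a receptor changed.

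Of 11 genes listed as sensors of enteroendocrine cells, most of them for nutrients, 2 rose, 3 fell and 6 did not pass. Other cells of the colon may carry these RNAs too, and their part was not tested. The peptide transporter gene Slc15a1 was at 8.40 ± 0.23 in deficient and 10.96 ± 0.097 in control colon (SD, n = 3 each) and fell by 2.56 on the log2 scale (limma adjusted p = 2.75e-06), the largest change in the list. The glucose transporter gene Slc5a1 fell by 0.54 and Gper1, an estrogen receptor gene, by 0.52, while the other Gper1 probe set, at -0.31, did not pass. Ffar2, the receptor of short-chain fatty acids on colonic L cells, rose by 0.58 (limma adjusted p = 5.78e-05), and both of its probe sets passed.

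Transcription factors of the endocrine lineage changed by less than 2-fold in their brightest probe sets. Of 20, 3 rose, 6 fell and 11 did not pass, with Nkx2-2 (-0.80), Foxa2 (-0.62), Mnx1 (-0.61) and Isl1 (0.55) changing the most. Nkx2-2 had a mean of 5.79 in deficient colon, below 6.26, where background is large, and of 6.59 in control colon. The other Isl1 probe set, at 0.14, did not pass. A second, not the brightest, probe set rose by 1.24 for Egr3 and fell by 0.98 for St18, while the brightest ones of both genes did not pass. Neurog3, the factor that commits a progenitor to the endocrine fate, was at 7.53 ± 0.052 in deficient and 7.51 ± 0.062 in control colon (SD, n = 3 each) and did not pass (log2 fold change 0.026, limma adjusted p = 0.728), whereas Neurod1, which acts after it and at the Sct gene, fell by 0.45 (limma adjusted p = 0.00200) and Atoh1, the factor of all secretory lineages, by 0.48 (limma adjusted p = 5.62e-05).

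**Figure D3:**
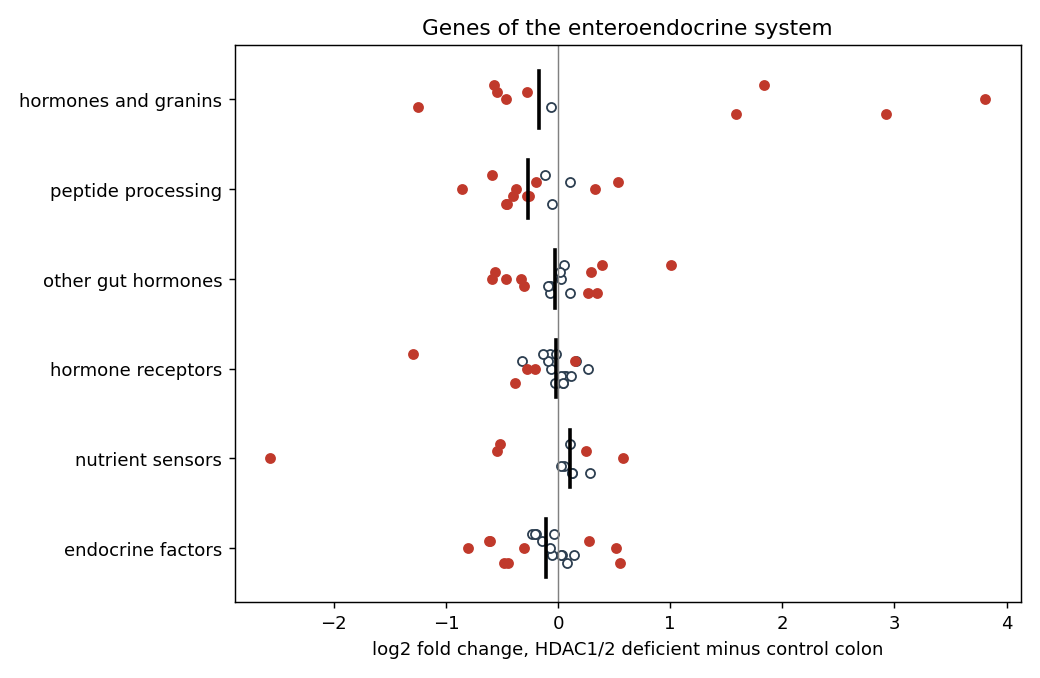
Log2 fold change (deficient minus control colon, horizontal axis) of single genes in 6 lists of the enteroendocrine system, filled red where limma adjusted p was under 0.05 and open where it was not, with a black bar at the list's median. The hormones and granins, chosen with earlier results of these data known, spread from -1.24 to 3.80. The peptide processing genes lie between -0.86 and 0.54 and the endocrine factors between -0.80 and 0.55. Nutrient sensors lie between -2.56 and 0.58, other gut hormones between -0.58 and 1.01 and receptors between -1.29 and 0.27.

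Genes of other cells that make the same peptides, or that shared the direction of the 4 raised hormones, were measured beside them. Of 19 enteric neuron markers, 9 fell, 0 rose and 10 did not pass, with a mean log2 value over the list of 7.50 to 7.51 on the deficient and 7.72 to 7.77 on the control arrays. Stmn2 (-0.60), Nefl (-0.59), Calcb (-0.58) and Snap25 (-0.50) fell the most by brightest probe set, while the other Snap25 probe set, at -0.096, did not pass. Chgb, Sst and Vip, which neurons also express, moved down with them, while Tac1, Nts and Cck moved the other way. The part of neurons in these values was not tested. Beta cell markers of the pancreatic islet were near their control level, with 1 of 6 past the test (Ins2, log2 fold change 0.15, limma adjusted p = 0.0323) and a list mean of 5.76 on each array in deficient and 5.72 to 5.83 in control colon. These list means lie below 6.26, where background is large, so a level near control may also be a lack of signal. The islet peptide genes Iapp, with 4 of 4 probe sets higher by 0.27 to 0.51, and Ppy, higher by 0.39 (limma adjusted p = 0.000213), did rise. The brightest Iapp probe set was itself dim, with a mean of 6.36 in deficient and 6.10 in control colon.

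Pancreatic acinar genes, in contrast, were raised in 13 of 15 cases and lower in 2, with a list mean of 11.18 to 11.23 in deficient and 7.91 to 7.94 in control colon, with Cela2a (7.40), Cpb1 (7.24), Cpa1 (5.64) and Ctrl (5.21) among them, while 4 of 4 Cela3b probe sets rose by 3.26 to 7.33. Secretin, cholecystokinin and neurotensin are small intestinal hormones, and enterocytes of the small intestine were therefore looked at too. Small intestinal enterocyte markers rose in 8 of 16 cases, fell in 2 and did not pass in 6. Alpi (5.08), Fabp6 (4.49), Mttp (4.03) and Fabp1 (3.41) were among them, with the other probe sets of Mttp and Fabp1 higher by 2.02 and 4.97, whereas the lactase gene Lct (-0.011, limma adjusted p = 0.937) and the trehalase gene Treh (0.043, limma adjusted p = 0.741) did not pass, with group means of 4.78 and 4.77 in deficient and 4.79 and 4.73 in control colon in that order. The stomach markers Tff2 (1.19), Tff1 (0.95) and Gkn2 (0.31) rose, Sox2 (-0.44) fell, and 6 of 10 did not pass, Atp4a and Atp4b among them. Leukocyte markers rose in 13 of 15 cases, among them S100a8 (4.19), S100a9 (2.17), Cd79b (1.65) and Cd3g (1.62). Control means of Cela2a, Cpb1, Mttp, Fabp1 and S100a8 lay below 6.26, as for Nts, so the sizes of these changes have no firm order. Gkn2 in control colon and Sox2 in both groups also had means below 6.26, where background is large. Goblet cell markers, of the other secretory lineage of the colon, fell in 6 of 11 cases and rose in 2, with Fcgbp (-0.96), Spdef (0.63), Rep15 (-0.55) and Clca1 (-0.38) the largest by brightest probe set, and with a second Clca1 probe set at -1.68. Among 13 colon epithelium markers, 6 fell and 5 rose, with Slc37a2 (-2.17), Hoxb13 (-0.90), Krt20 (0.67) and Car1 (0.57) the largest. The part of these other cells in the hormone values was not tested.

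**Figure D4:**
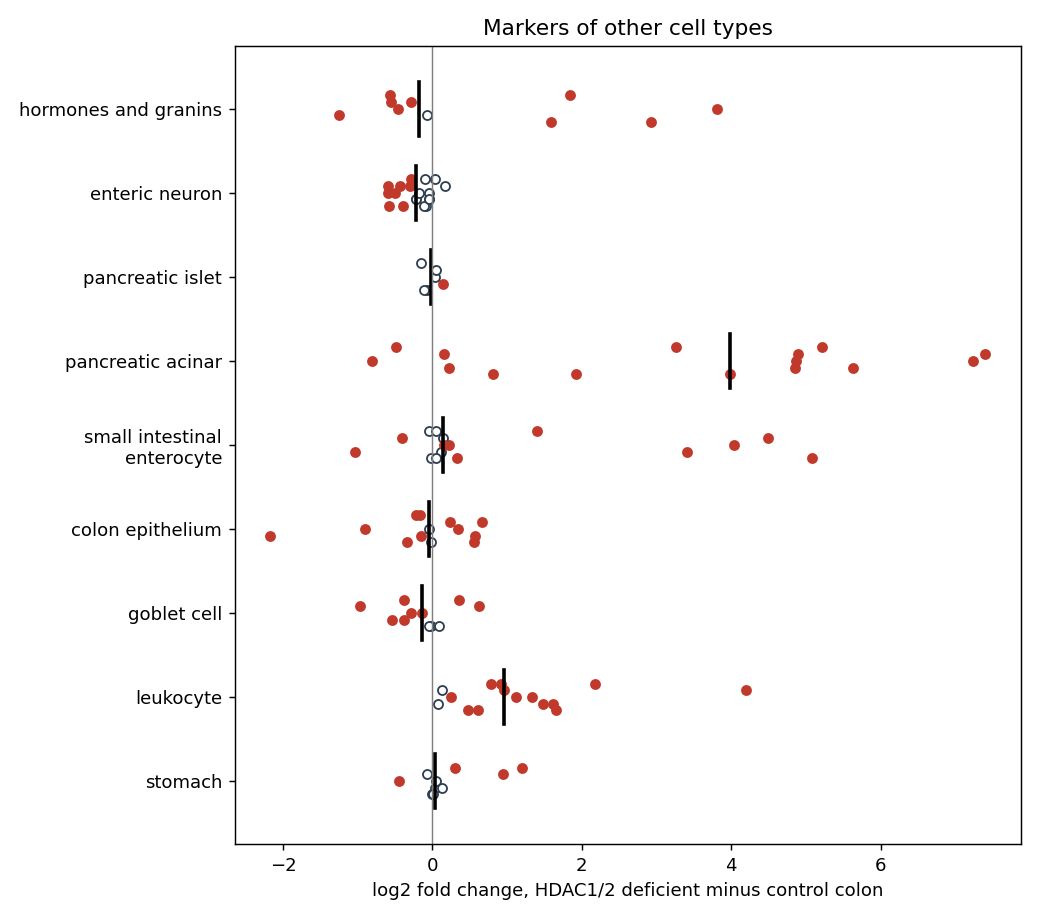
Log2 fold change (deficient minus control colon, horizontal axis) of the hormones and granins and of markers of 8 other cell types, filled red where limma adjusted p was under 0.05 and open where it was not, with a black bar at each list's median. Acinar markers have a median of 3.98 and leukocyte markers of 0.97, while enteric neuron markers have a median of -0.21 and islet markers of -0.018.

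The gene profiles closest to Chga belonged to Sike1, Smim6 and Galm, with root mean square differences of 0.031, 0.031 and 0.034 log2 units over the 6 arrays and log2 fold changes of -1.19, -1.23 and -1.19. Both groups' arrays were closely alike within the group, so this measure rests mainly on the size of the fold change.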

How the data were processed

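Total RNA of the colon of 3 HDAC1/2 deficient and 3 control mice was hybridized to Affymetrix arrays, 1 per mouse in the labels. Each probe set has a deposited log2 value, which the authors background-corrected and normalized by RMA in Flexarray 1.6.1 (the submitters' processing notes also name RMA). Groups and replicate numbers came from the sample titles. Of 45101 probe sets, 64 control probe sets were left out, and the other 45037 entered a limma fit (version 3.58.1, R 4.3.3, lmFit and eBayes, no covariate, Benjamini-Hochberg over all). In the annotation used, 34945 have 1 symbol, 932 several and 9160 none, and the 18193 genes are each shown through the brightest probe set over the 6 arrays. Figures were drawn with matplotlib 3.10.9.

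The members and lists were chosen with earlier results of these data known. Named were all 10 members, the 4 largest changes past the test in each of 13 other lists, any receptor past 2-fold and, for Chga and the most changed member, the 3 genes of smallest root mean square difference. Cpe, Scg2, Scg3, Tph1, Ghrl, Gip, Gast, Sctr, Ntsr1, Cckar, Tacr1, Neurog3, Neurod1, Atoh1, Egr3, St18, Iapp, Ppy, Cela3b, Lct, Treh, Atp4a and Atp4b were added after their values were seen. Listed genes with no probe set of their own symbol here, such as Pcsk2, Glp2r, Rxfp4 and Gpr119, were not analysed here. The script was tested on simulated data. The deposited table carries no scan date, so batches were not tested. The number of arrays limits the precision.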

Additional observations from a re-analysis of the deposited data

How the results depend on the processing

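The limits are the 3 arrays per group and the background at dim probe sets, which touches Nts in control colon. The alternatives comprised the methods' t-test, unadjusted or adjusted, quantile normalization again, median centring, a filter at the 40th percentile, eBayes with trend and robust settings, no shared-sequence probe sets, the mean of a gene's probe sets, the replicate number as a block, and leaving out each array in turn. Under all 15, Sct, Nts, Tac1 and Cck stayed higher and Chga, Chgb, Gcg, Sst and Insl5 lower and past the test. The percentile filter is no support for Nts, which passed it through the deficient arrays alone. The log2 fold change of Tac1 was 0.95 as the mean of its 2 probe sets, against 1.84. Pyy, with a log2 fold change of -0.066 in both, passed the methods' t-test without adjustment, though not with it, and limma with trend and robust settings. Each of these settings made 6 members lower. Over all alternatives it ranged from -0.091 to -0.052, with limma adjusted p from 0.0197 to 0.443. Leaving out 1 array each gave 4 members higher and 5 lower every time. The 4 differences between members kept their sign under each of the scaling, probe set and array alternatives run for them. With the replicate block, 4 members were higher and 5 lower, as without it, and 3835 and 4950 of all genes, against 3990 and 5172. The deviations of same-numbered arrays from their group means had correlations of -0.026 to 0.096, and 4 of 6 arrays correlated best with their own number. With 3 arrays per group, this cannot tell whether same-numbered arrays share more than a number.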
